A study of Mus musculus with 6 samples.

Results

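The complement components and regulators described here are 8 genes: the C1q chain genes C1qa, C1qb and C1qc, the components C2, C3 and C4b, and the inhibitors Serping1 and Cd59a. They were chosen by name, with earlier results of these data known, and are 8 of 32564 genes in the RNA-seq tables. All 8 had enough counts to be tested among 15012 genes. The 6 libraries came from cells sorted by flow cytometry as quiescent neural stem cells from the subependymal zone, the stem cell layer beside the lateral ventricles. The animals were gfap:GFP transgenic mice of strain C56BL/6J, 3 months old, and the cells were isolated 3 days after an intraventricular injection. In 3 libraries the injection was aCSF (artificial cerebrospinal fluid, vehicle), and in 3 it was an antagomir, an oligonucleotide that blocks a microRNA, against miR-204. The transgene places green fluorescent protein under the promoter of Gfap, a gene also active in astrocytes. The labels name no control oligonucleotide and do not say whether a library holds 1 animal or a pool, so each p-value reflects library-to-library spread, which may be technical. Injecting an oligonucleotide as such and blocking miR-204 cannot be told apart in this design.

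Complement is a cascade of proteins best known from blood, where it tags microbes and cell debris. In the classical pathway C1q, built from the A, B and C chains, binds a target and activates proteases that cleave C4 and C2, and the products cleave C3, the step on which all pathways converge. Fragments of C3 and C4 stay on the surface as tags, and the late components can form a pore in the membrane. In brain tissue C1q is made mainly by microglia, the resident macrophages, C4 and C3 are also made by astrocytes and other cells, and C1q and C3 are known for marking synapses for removal. Serping1 encodes the C1 inhibitor, which blocks the first proteases, and Cd59a encodes a surface protein that blocks the pore.

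The sequence of the blocked microRNA is shown because the comparison turns on it, and promoters are shown for the C1q genes because these varied together. The 3 C1q genes lie side by side within 18675 bases of chromosome 4. Of the 8 members, 4 (C1qb, C1qc, C3 and Cd59a) have an entry in the RefSeq promoter table (GRCm38.p6), which holds 250 bases before to 50 after a gene's start. The miR-204-5p sequence below (RefSeq, chr19:22750610-22750631, plus strand) has its seed, bases 2 to 8, in capitals. The promoters of C1qb (chr4:136886151-136886450, minus strand) and C1qc (chr4:136892865-136893164, minus strand) have in capitals the match to AGGAAGT, an ETS motif of the type bound by the microglial and myeloid factor PU.1, on the opposite strand. The Cd59a line (GRCm38, chr2:104114993-104115016, plus strand) is a stretch of its 3′ untranslated region. It has in capitals the 8 bases complementary to the first 8 bases of miR-204-5p.
miR-204-5p: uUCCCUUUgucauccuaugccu
C1qb promoter: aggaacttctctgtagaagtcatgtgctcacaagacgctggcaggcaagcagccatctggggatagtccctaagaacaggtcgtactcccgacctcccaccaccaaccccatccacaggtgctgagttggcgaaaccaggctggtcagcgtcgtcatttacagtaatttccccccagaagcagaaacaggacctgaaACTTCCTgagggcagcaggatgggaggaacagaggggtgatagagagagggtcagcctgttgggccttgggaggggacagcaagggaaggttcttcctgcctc
C1qc promoter: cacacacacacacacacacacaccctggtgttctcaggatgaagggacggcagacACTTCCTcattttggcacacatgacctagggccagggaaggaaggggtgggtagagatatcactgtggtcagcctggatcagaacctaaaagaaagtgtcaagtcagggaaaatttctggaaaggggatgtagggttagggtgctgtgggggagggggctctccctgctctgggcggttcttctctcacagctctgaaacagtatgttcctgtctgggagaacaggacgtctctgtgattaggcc
Cd59a site: aaaaaaaaAAAGGGAAagaaaaaa

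The AGGAAGT match began 53 bases before the start in C1qb and 195 bases before it in C1qc, and none lay in the windows of C3 and Cd59a. Searched on both strands, this motif occurred in 9.35% of the 32851 promoters in the table. The interferon-stimulated response element core, which 3.44% of promoters held, had a match in the Cd59a window alone of the 4. The GAS motif TTCNNNGAA, held by 8.30% of promoters, had no match in any of the 4. The search of 3′ untranslated regions (GENCODE M21, the most abundant coding transcript of each gene) was added after the levels were known. A match to the miR-204-5p seed (AAAGGGA or AAGGGAA) was present in Cd59a and absent from the other 7 members, whose untranslated regions were 43 to 252 bases long against 1174 bases in Cd59a. Of 13782 tested genes with such a region, 20.5% held a match, at a median length of 881.5 bases. The Cd59a match began 821 bases after the stop codon, within a run of A bases.

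Libraries held 14866453 to 19694409 estimated counts, and 3 counts, the floor used for low genes, equalled 0.152 to 0.201 CPM (estimated counts scaled to a common library size). Floors and intervals cover counting error only. Astrocyte and stem cell genes marked every library, with 180 to 556 CPM of Gfap and 1593 to 2776 CPM of the glutamate transporter gene Slc1a3. Genes of other cells were also present, with 1741 to 3245 CPM of the myelin gene Mbp and 281 to 617 CPM of the ependymal gene Foxj1. Of 7 endothelial genes Cldn5 reached no more than 0.979 CPM and Pecam1 measured 4.59 to 10.04 CPM, and the list summed to 5.596 to 22.8 CPM. Of 5 choroid plexus genes Ttr reached no more than 1.28 CPM, but the list summed to 53.5 to 116 CPM, most of it from Clic6 and Folr1. All 20 listed microglia genes were detected, and their summed level was 3160 CPM in vehicle replicate 1 against 228 to 519 CPM in the other 5 libraries. The sum of 16 interferon response genes was 670 CPM in vehicle replicate 1 and 163 to 263 CPM elsewhere. Vehicle replicate 1 thus stood apart in genes that bear on complement. It also had the highest Gfap level (556 CPM) and the lowest sum of 5 oligodendrocyte genes (8481 CPM, against 12900 to 19133 CPM elsewhere). The members' fold changes are given with and without that library.

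None of the 8 members differed between antagomir and vehicle by edgeR's quasi-likelihood test (adjusted p 0.949 to 0.985), and 0 of 15012 genes passed at an adjusted p of 0.05, so percent called was 0%. The members' log2 fold changes, antagomir over vehicle, were negative in 7 of 8 with a median of -0.81, against 50.9% of all tested genes and a median of -0.01. Without vehicle replicate 1 they were negative in 4 of 8 with a median of -0.07. At an unadjusted p of 0.05 there were 2 members, C1qb and C4b, both lower, in a comparison where 4.1% of all genes lay under that limit and 1.93% did so with a lower level. That count of members was 0 without vehicle replicate 1, where 1133 of 15371 genes tested lay under that limit. It was also 0 without antagomir replicate 1 (519 of 15460 genes) or 2 (634 of 15386) and with limma-voom (689 of 15012). It was 1 with limma on TPM (727 or 735 of 15012 genes, by pseudocount). With no filter on low counts (839 of 20802 genes) and with the replicate block (1284 of 15012) it was also 1. It rose to 4 without vehicle replicate 2, where 664 of 15400 genes tested lay under that limit. Without vehicle replicate 3 it was 5, where 495 of 15393 genes did. DESeq2 called 1 gene of the whole table and 0 members. C4b alone had groups that did not overlap, lower with antagomir, as did 5.45% of all tested genes. No member was higher with antagomir in this sense, against 5.07% of all tested genes. Vehicle replicate 1 was the highest library in 6 of the 8 members, as it was in 16.7% of all genes.

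**Figure D1:**
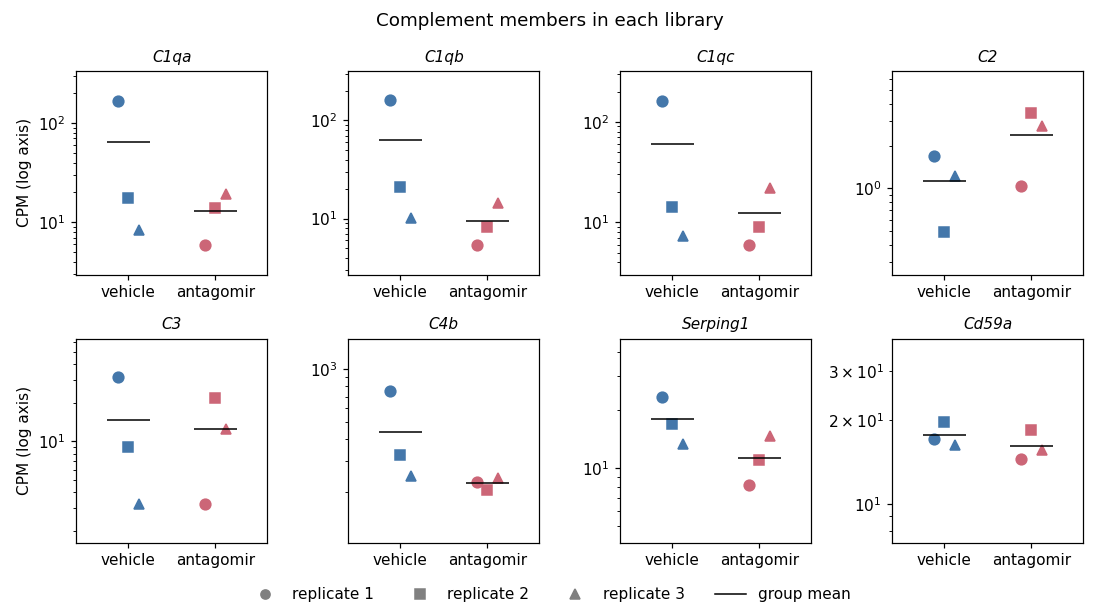
CPM (log axes) of each complement gene in the 3 vehicle (blue) and 3 antagomir (red) libraries, with marker shape giving the replicate and bars giving group means. The C1q chains in vehicle replicate 1 lie near 160 CPM or above, far over the other libraries, while C4b has no antagomir library above 240 CPM and no vehicle library below 248 CPM.

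C1qa, which encodes the A chain (ENSMUSG00000036887.5, GRCm38 chromosome 4, 136895917 to 136898803), measured 169, 17.7 and 8.43 CPM in vehicle replicates 1, 2 and 3. In antagomir replicates 1, 2 and 3 it measured 5.90, 14.0 and 19.3 CPM. One vehicle library was thus high, and the other 2 lay within the antagomir range. C1qb, of the B chain (ENSMUSG00000036905.8, chromosome 4, 136880129 to 136886187), measured 161, 20.9 and 10.3 CPM with vehicle and 5.35, 8.30 and 14.5 CPM with antagomir. C1qc, of the C chain (ENSMUSG00000036896.5, chromosome 4, 136889804 to 136893065), measured 161, 14.1 and 7.26 CPM with vehicle and 6.02, 9.04 and 21.9 CPM with antagomir. The groups overlapped for all 3 chains.

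The fold changes of the chains had large errors and depended on the tool. On the log2 scale they were -2.31 ± 1.03 (SE) for C1qa, -2.76 ± 0.96 for C1qb and -2.30 ± 1.09 for C1qc, with edgeR adjusted p of 0.949 for each. With limma-voom they were -1.29, -1.87 and -1.20, and with limma on log2(TPM + 0.5) they were -1.24, -1.82 and -1.18. Vehicle replicate 1 held 86.8%, 84.0% and 88.5% of the vehicle group's counts of C1qa, C1qb and C1qc. Without it the log2 fold changes were 0.01 for C1qa, -0.72 for C1qb and 0.22 for C1qc, so the direction turned for C1qc and, at a value near 0, for C1qa (edgeR adjusted p 0.999, 0.759 and 0.942). In these bulk libraries, fewer cells of a type and less RNA per cell cannot be told apart.

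**Figure D2:**
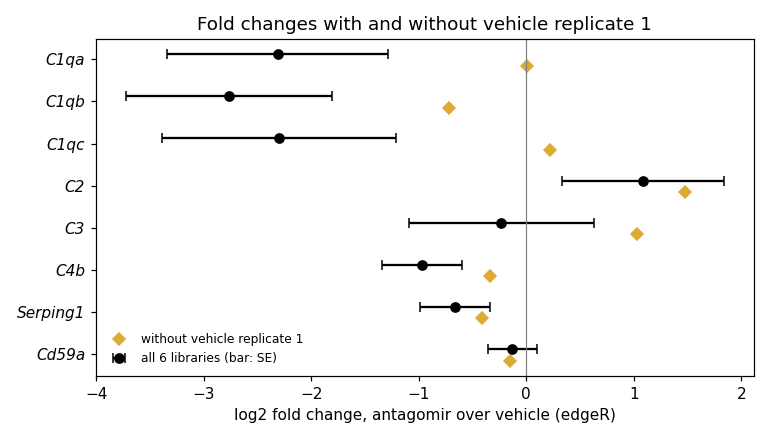
Log2 fold changes of the 8 genes, antagomir over vehicle, from edgeR with all 6 libraries (black, bars are SE) and without vehicle replicate 1 (yellow diamonds). C1qa, C1qc and C3 pass from the negative to the positive side when that library is left out, and C1qb, C4b, Serping1 and Cd59a stay negative.

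The C1q genes followed the microglia genes from library to library. In vehicle replicate 1 C1qa, C1qb and C1qc were 12.9, 13.5 and 13.8 times the mean of the other 5 libraries, and the 20 microglia genes were 4.57 to 15.1 times that mean, with a median of 9.86. Among these, the growth factor receptor gene Csf1r measured 596 CPM there and 32.5 to 96.6 CPM elsewhere, and Tmem119, a marker of resident microglia, 227 CPM and 4.27 to 23.3 CPM. The fractalkine receptor gene Cx3cr1 and the purine receptor gene P2ry12 were 9.09 and 7.84 times. With vehicle replicate 1 left out, the microglia genes were negative in 10 of 20 with a median log2 fold change of 0.04, against 20 of 20 and -1.93 with it. The part of microglial RNA in the C1q differences was not tested beyond the ratios that follow.

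Set against Csf1r, the summed CPM of the C1q genes was 0.823, 0.698 and 0.527 in vehicle replicates 1 to 3 and 0.532, 0.549 and 0.578 in antagomir replicates 1 to 3. Vehicle replicate 1 was the highest library on this measure too, by far less than in CPM. The log2 difference was -0.28, with an exact two-sided permutation p of 0.4 where 0.1 is the smallest that 3 against 3 libraries can give. Set against the sum of the 20 microglia genes, the C1q level was 0.155, 0.120 and 0.0924 with vehicle and 0.0758, 0.0991 and 0.108 with antagomir (log2 difference -0.36, exact permutation p = 0.3).

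**Figure D3:**
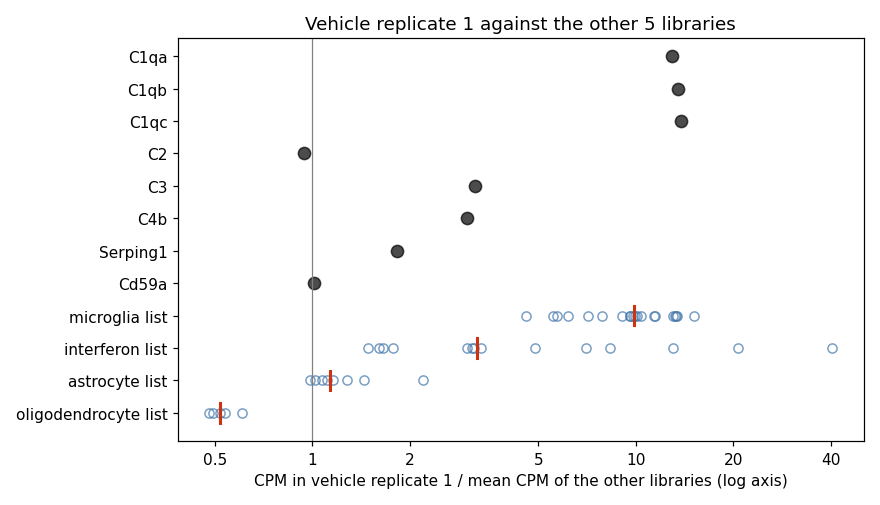
CPM in vehicle replicate 1 divided by the mean CPM of the other 5 libraries (log axis), for each complement gene (black) and for the tested genes of 4 marker lists (open circles, red bars are list medians). The C1q chains lie at 12.9 to 13.8 among the microglia genes, C3, C4b and Serping1 lie between 1.83 and 3.19, and C2 and Cd59a lie near 1.

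The chains were not in the same proportion in every library. C1qb gave 32.7%, 39.7% and 39.5% of the C1q counts in vehicle replicates 1, 2 and 3 and 31.0%, 26.5% and 26.0% in antagomir replicates 1, 2 and 3. Its share was thus lower in each antagomir library than in any vehicle library, but the gap between the nearest 2 was within counting error. The 95% Wilson interval was 31.8% to 33.7% in vehicle replicate 1, with 8721 C1q counts, and 25.9% to 36.6% in antagomir replicate 1, with 284. The share not taken by C1qb went to C1qa in antagomir replicate 2 (44.7%) and to C1qc in antagomir replicate 3 (39.3%). Each chain rested on a single coding transcript, which held all of the C1qa and C1qb counts.

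**Figure D4:**
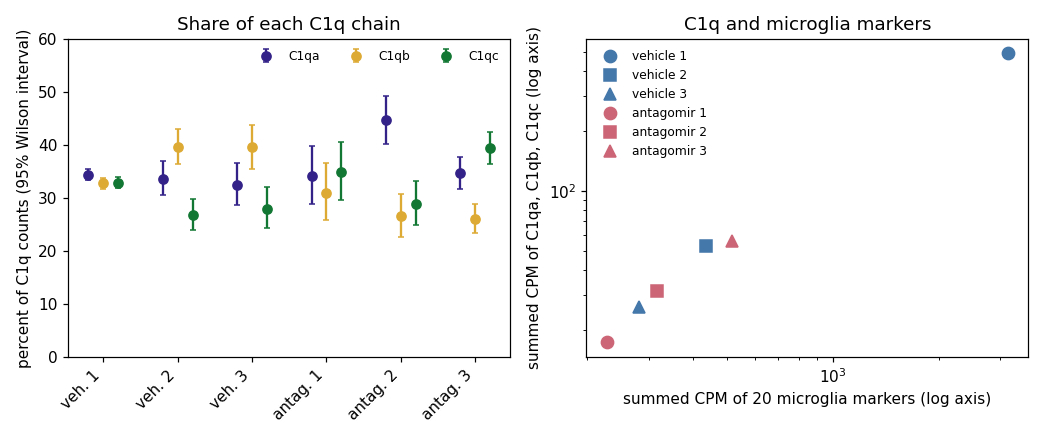
Left, percent of C1q counts from each chain in each library, with 95% Wilson intervals; C1qb is at 39.7% and 39.5% in vehicle replicates 2 and 3 and at 26.5% and 26.0% in antagomir replicates 2 and 3. Right, summed CPM of the C1q chains against summed CPM of 20 microglia markers (log axes), where the 6 libraries lie along a line and vehicle replicate 1 is at the upper end.

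C4b, the complement component C4 gene (ENSMUSG00000073418.4, chromosome 17, 34728380 to 34743882), had the highest level of the members and was lower with antagomir. It measured 749, 323 and 248 CPM in vehicle replicates 1, 2 and 3. In antagomir replicates 1, 2 and 3 it measured 229, 206 and 240 CPM, so every antagomir library lay below every vehicle library. The antagomir libraries were close together (225 ± 17.5 CPM, SD, n = 3) and the vehicle libraries were not (440 ± 270 CPM). The log2 fold change was -0.97 ± 0.37 (SE), with an unadjusted p of 0.0311 and an edgeR adjusted p of 0.949, so it did not pass over all genes. Without vehicle replicate 1 the groups still did not overlap, as for 12.9% of all tested genes in that direction, and the log2 fold change was -0.34 (edgeR adjusted p = 0.710).

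Vehicle replicate 1 was 3.00 times the other 5 libraries in C4b, less than in C1q. The tested interferon response genes had a median of 3.24 on this measure, with a wide range of 1.49 to 40.5. The interferon signalling factors Irf9 and Irf7 were 3.12 and 8.33 times there. The interferon list was negative in 13 of 14 tested genes with a median log2 fold change of -1.30, and in 11 of 14 with a median of -0.61 without vehicle replicate 1. The astrocyte list, for cells that also make C4, was negative in 8 of 8 with a median of -0.31, and in 8 of 8 with a median of -0.23 without that library. Other lists also had fold changes mostly of the same sign, although their summed CPM overlapped between the groups and 0 of their genes were called. The ependymal genes were lower in 5 of 5 (median -0.37, and -0.48 without vehicle replicate 1), and the oligodendrocyte genes were higher in 5 of 5 (0.39, and 0.14 with 4 of 5 higher). The oligodendrocyte precursor genes were higher in 4 of 4 (1.18, and 1.82) and the neuroblast genes in 4 of 4 (0.72, and 1.80). Of the neuroblast genes, Cd24a had a log2 fold change of only 0.00025. Dcx measured 142, 25.1 and 17.4 CPM with vehicle and 274, 60.8 and 61.1 CPM with antagomir, so its group means leaned on single libraries. The part of any of these lists in the C4b difference was not tested. The full-length coding transcript C4b-201 carried 95.3% to 97.9% of the gene's counts, and the short transcript C4b-202, annotated for nonsense-mediated decay, 1.52% to 4.05%. The neighbouring near-identical gene C4a was not analysed here, so reads of C4a could be counted under C4b.

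C2, the protease that C4 fragments bind (ENSMUSG00000024371.14, chromosome 17, 34862604 to 34898265), was the least abundant member by CPM and the only one with a positive fold change. It measured 1.69, 0.489 and 1.22 CPM with vehicle and 1.03, 3.41 and 2.78 CPM with antagomir. Antagomir replicates 2 and 3 were above all vehicle libraries, and antagomir replicate 1 lay within the vehicle range. The groups held 62 and 117 counts (95% Poisson intervals 47.5 to 79.5 and 96.8 to 140), and the log2 fold change was 1.08 ± 0.75 (SE, edgeR adjusted p = 0.949). Coding transcripts held 19.1, 0 and 10.3 of the counts in vehicle replicates 1, 2 and 3 and 12.03, 35.2 and 28.5 in antagomir replicates 1, 2 and 3. The readthrough gene Gm20547, which overlaps C2, held up to 24 counts in a library, so the split between them is uncertain. With their counts pooled, the log2 fold change was 1.29 (edgeR adjusted p = 0.949).

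C3, the central component (ENSMUSG00000024164.15, chromosome 17, 57203970 to 57228136), varied widely within both groups. It measured 31.8, 9.05 and 3.25 CPM in the vehicle libraries and 3.22, 21.9 and 12.5 CPM in the antagomir libraries. Every antagomir library lay within or just below the vehicle range, and the log2 fold change was -0.23 ± 0.86 (SE, edgeR adjusted p = 0.985). It was 1.03 without vehicle replicate 1 (edgeR adjusted p = 0.778) and 0.22 without antagomir replicate 1, so its direction rested on single libraries. It was also positive on the TPM scale, at 0.23 with a pseudocount of 0.5.

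Unlike the C1q genes, C3 was high in antagomir replicate 2, where microglia genes were not (316 CPM summed). Its ratio to the summed microglia genes was 0.069 in that library and 0.010 to 0.024 in the other 5. The same library had the highest sum of 7 genes of border macrophages, which live around vessels and in the meninges, at 14.7 CPM against 2.13 to 3.26 CPM elsewhere. Most of that sum came from the mannose receptor gene Mrc1, at 5.62 CPM there and 0.122 to 1.80 CPM in the others, and F13a1, at 4.95 CPM there and 0 to 0.406 CPM in the others. The list did not move as 1 group, since Cd163, at 1.14 CPM there, was highest in vehicle replicate 2 (2.08 CPM), and Lyve1 and Pf4 were highest in antagomir replicate 1 (0.547 and 0.365 CPM). In vehicle replicate 1, where C3 was highest, the border macrophage sum was 3.26 CPM. The sum of 6 monocyte and neutrophil genes was 2.59 CPM in vehicle replicate 1 and 2.34 CPM in antagomir replicate 2. Elsewhere it was 0.183 to 0.559 CPM, and none of these genes had enough counts to be tested. This list did not move as 1 group either, since Ccr2 was highest in vehicle replicate 3 (0.559 CPM). The part of either list in the C3 level was not tested.

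Of the inhibitors, Serping1, the C1 inhibitor gene (ENSMUSG00000023224.12, chromosome 2, 84765387 to 84775444), measured 23.5, 17.0 and 13.3 CPM with vehicle and 8.21, 11.0 and 14.7 CPM with antagomir. Antagomir replicate 3 lay above vehicle replicate 3, so the groups overlapped. The means were 17.9 ± 5.14 and 11.3 ± 3.28 CPM (SD, n = 3), with a log2 fold change of -0.66 ± 0.33 (SE, edgeR adjusted p = 0.949) and of -0.41 without vehicle replicate 1 (adjusted p = 0.795). Cd59a, the pore inhibitor gene (ENSMUSG00000032679.12, chromosome 2, 104095801 to 104115354), had the smallest spread of the members over the 5 libraries other than vehicle replicate 1 (highest over lowest 1.36), at 17.2, 19.7 and 16.3 CPM with vehicle and 14.5, 18.4 and 15.6 CPM with antagomir. Its log2 fold change was -0.13 ± 0.23 (SE, edgeR adjusted p = 0.958), and it was the member with the miR-204-5p seed match shown above. The related gene Cd59b held 62 to 283 counts per library against 238 to 322 for Cd59a. Whether reads were assigned wrongly between them was not tested. With both genes pooled, the log2 fold change was -0.29 (edgeR adjusted p = 0.949).

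Per transcript length, C4b was the most abundant member, with 85.9 to 94.6 TPM (a level corrected for transcript length) in the antagomir libraries. There it stood clear of the next, C1qa, at 11.4 to 37.2 TPM. Below it came C1qa, C1qc, Cd59a, C1qb, Serping1, C2 and C3, from a mean of 25.2 TPM down to 5.57 TPM, and each of these overlapped its neighbour in that order. In vehicle replicate 1 the order was different, with C1qa at 307, C1qb at 277, C4b at 268 and C1qc at 247 TPM. In vehicle replicates 2 and 3 C4b again led, at 139 and 100 TPM, with the C1q chains between 11.0 and 37.2 TPM.

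Of 55 further complement genes listed from general knowledge, 54 were in the files, 11 of them at 0 in all libraries, and 29 were tested. None was called in either direction, 21 were lower (72.4%, against 50.9% of all tested genes) and 8 higher, and the median log2 fold change was -0.26. Without vehicle replicate 1, 18 of 30 were lower, with a median of -0.16. The 2 genes under an unadjusted p of 0.05, where 4.1% of all genes lay, were C5ar2, a receptor for the C5a fragment, and Fcna, a ficolin of the lectin pathway, named after their values were seen. C5ar2 measured 10.5, 3.49 and 0.711 CPM with vehicle and 0.304, 1.00 and 0.397 CPM with antagomir. Fcna measured 0.113, 0.183 and 0.609 CPM with vehicle and 2.43, 1.07 and 0.964 CPM with antagomir.

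The pathway was represented unevenly. Genes of the proteases that act with C1q were low, with C1ra at 0.245 to 1.13 CPM and C1s1 at 0 to 2.51 CPM, while C1rb was listed at 0. C1rl, also listed for the classical pathway, measured 1.09 to 5.03 CPM. Of the alternative pathway, Cfb measured 2.93 to 8.43 CPM and Cfp 1.98 to 3.12 CPM. Of the late components, Hc, which encodes C5, measured 10.2 to 33.0 CPM and C8g 6.27 to 11.9 CPM, and the other 5 listed were each under 1 CPM in every library. Clu, which encodes clusterin, a secreted inhibitor of the pore that astrocytes make in large amounts, was far the highest of the list at 4375 to 5990 CPM. The regulators Cr1l and Cd55, which limit C3 cleavage on the cell surface, measured 24.5 to 40.2 and 22.3 to 58.6 CPM. The brain regulators Csmd1 and Csmd3, which carry complement control domains, measured 9.92 to 31.4 and 7.12 to 25.4 CPM, and Susd4, a further membrane regulator, measured 3.25 to 12.3 CPM.

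Receptors and C1q-binding proteins fell into different patterns. Itgam and Itgb2, the 2 chains of the C3 fragment receptor CR3 of microglia and myeloid cells (Itgam is also in the microglia list), measured 112 and 38.1 CPM in vehicle replicate 1. Elsewhere they measured 4.53 to 18.4 and 2.79 to 7.09 CPM, so vehicle replicate 1 was 10.1 and 7.36 times the mean of the others. Calr and C1qbp, widely expressed genes whose proteins can bind C1q, were 1.06 and 1.16 times. The other genes of the 16 most abundant, Cpn1, Colec12 and Cd59b, were 0.716 to 1.05 times. None of these 16 genes passed edgeR's test.

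**Figure D5:**
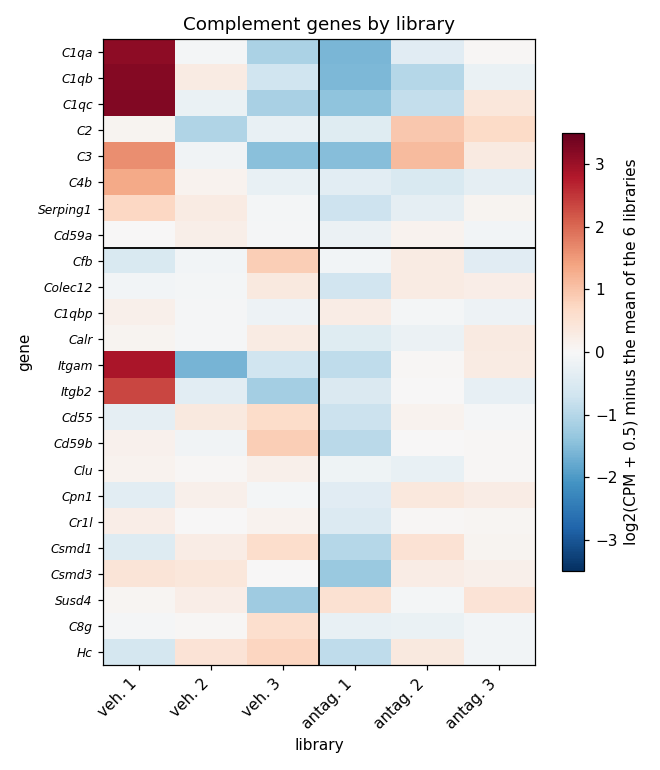
Log2(CPM + 0.5) minus the gene's mean over the 6 libraries for the 8 members (above the line) and the 16 most abundant other complement genes (below it), with vehicle libraries left and antagomir libraries right. The C1q chains, Itgam and Itgb2 are darkest in vehicle replicate 1, and most other genes stay near 0.

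Genes with the most similar pattern over the 6 libraries were found among 11772 coding genes by Pearson's r of log2 CPM. This describes 6 libraries of which vehicle replicate 1 sets most of the range for the C1q genes, and was not repeated without it. Of the closest genes, those to C1qa were Unc93b1, Mpeg1 and Csf1r (r 0.994 to 0.996), the closest to C1qb Cln6 and Rtp4 (0.993 and 0.990), and the closest to C1qc Csf1r, P2ry12 and Laptm5 (0.993 to 0.994). For C4b they were Gpx1, Kdm2a and Ndufs8 (0.983 to 0.991) and for Serping1 Gbp7, Maea and Cd33 (0.986 to 0.996). For C3 they were Rapgef5 and Arl10 (0.978 and 0.976), for C2 Rasgrp1, Snx10 and Alkbh5 (0.972 to 0.980), and for Cd59a Nos3, P3h2 and Cradd (0.977 to 0.981). Among the members, the C1q chains correlated with each other at 0.968 to 0.987 and with C4b at 0.918 to 0.970, and with Serping1 at 0.861 to 0.924. Cd59a correlated with the C1q chains at 0.178 to 0.317, and C2 did so at -0.03 to 0.17.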

How the data were processed

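SMART-Seq v4 cDNA, which does not mark strand, was sequenced as 100 bp paired ends, per the labels' protocols. Per the submitters' processing notes, kallisto and sleuth were used with mm10; their versions are not given in the sources used here. Estimated counts (expected counts) were deposited per transcript and are not normalized, per the file headers. The deposited TPM values correct for effective length and sum alike in all libraries, per the file headers.

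Of 99567 transcripts, 98294 (98.7%) matched GENCODE M21 (GRCm38). Counts were summed per gene and rounded. The main test was the robust quasi-likelihood test of edgeR 4.0.16 (R 4.3.3) on all 6 libraries, with group as the only term, TMM scaling and filterByExpr (minimum count 10). Its p-values were adjusted by Benjamini and Hochberg's method across 15012 genes. SE is the absolute log2 fold change over the root of the F statistic. On simulated counts of these libraries the test recovered 1, 11, 33 and 36 of 50 genes changed 1.5, 2, 4 and 8-fold, with 9 false calls among 14692 genes. Alternatives were other scalings, DESeq2 1.42.0, limma 3.58.1, TPM, filters, left-out libraries, a replicate block and pooling of genes that may share reads. Libraries within a group differed beyond sampling noise (chi-square per gene 23.5 to 72.5).

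The members and lists were chosen with earlier results of these data known. Named were all members, the 16 other complement genes highest in TPM, fixed cell markers and, per member, the 3 genes of most similar pattern (mean CPM of at least 5, no Gm or Rik names). Values of a few genes that the rule would name are not reported here.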

Additional observations from a re-analysis of the deposited data

How the results depend on the processing

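In every alternative run, 0 complement members passed, and 0 genes of the whole table passed except with DESeq2, which called 1. With edgeR, 616 genes had an unadjusted p under 0.05, and with DESeq2 781. The log2 fold changes of C1qb, C2, C4b, Serping1 and Cd59a kept their sign in every alternative. With single libraries left out they ranged from -3.26 to -0.72 for C1qb, 0.73 to 1.48 for C2, -1.24 to -0.34 for C4b, -0.89 to -0.41 for Serping1 and -0.23 to -0.05 for Cd59a. Those of C1qa and C1qc ranged from -2.83 to 0.01 and from -3.01 to 0.22, and turned positive only without vehicle replicate 1 (0.0053 for C1qa). That of C3 ranged from -0.91 to 1.03. It was positive without vehicle replicate 1 (1.03) or antagomir replicate 1 (0.22), with limma on log2(TPM + 0.5) (0.23) or log2(TPM + 2) (0.17), and with the replicate block (0.25), and the cause was not tested. The log2 ratio of group means turned to 0.21 for C1qc and 1.03 for C3 without vehicle replicate 1, and to 0.14 for C3 in TPM. The C1q level relative to Csf1r differed by -0.46 to -0.14 (log2) with single libraries left out. Nothing in the labels says that replicate numbers pair the libraries. Same-numbered libraries deviated together with correlations of 0.19, 0.07 and 0.03, against -0.19 to 0.14 for differently numbered ones. With 3 libraries a group these values cannot settle whether the libraries are paired. With the replicate block the log2 fold change was -1.06 for C1qa, -1.78 for C1qb, -1.08 for C1qc and -0.80 for C4b, 0 genes and 0 members were called, and 1284 genes lay under an unadjusted p of 0.05. C2 had no value with a mean count of at least 50, and C4a could not be pooled with C4b. Most 2-fold differences were below what 3 libraries a group could detect in the simulated data.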

Other observations

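In vehicle replicate 1 the C5a receptor genes C5ar1 and C5ar2, named after their values were seen, were at 7.48 and 8.86 times the mean CPM of the other 5 libraries, within the range of the microglia genes. The C3a receptor gene C3ar1, named in the same way, was at 1.23 times. Its highest level, 7.30 CPM, was in antagomir replicate 2, the library in which C3 was also highest among the antagomir libraries.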
